A study of Mus musculus with 2 samples.

Results

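The 10 immediate-early genes studied here were followed across the dendritic cells (DC) of the mouse spleen, namely the AP-1 genes Fos, Fosb, Jun, Junb and Jund, the EGR genes Egr1, Egr2 and Egr3, and Ier2 and Atf3. They were chosen by name, and all 10 were found among the 32285 genes of each library. The WT mice (H2-Aa +/+) were set against mice of the genotype H2-Aa cit/cit, called cit/cit below, by scRNA-seq of their splenic DC. The mutants carry the citation allele of H2-Aa, the gene of the MHC-II alpha chain, in every cell. Both groups were naive female mice of 4 months, and each library pooled the cells of 3 mice after CD11c-positive selection and a sort of live CD45.2+ CD11c+ cells. The design therefore holds 1 library per genotype, mouse-to-mouse spread was not measured, and no test was made. All intervals are 95% intervals that cover counting error only, and the genotype, the handling of a suspension and the library cannot be told apart.

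Immediate-early genes are transcribed within minutes of a signal and need no new protein for it. FOS and JUN proteins pair through leucine zippers to form the AP-1 transcription factor, whereas EGR proteins bind DNA through zinc fingers, and both families are driven by MAP kinases acting on SRF, ELK and CREB factors bound at their promoters. In cells taken from tissue they are also known to be induced by enzymatic digestion, warming and sorting, so their level in a suspension need not be the level in the animal.

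There were 7814 cells with 51020804 UMIs in the WT library and 11525 cells with 72652201 UMIs in the cit/cit library, with medians of 5492 and 5633 UMIs per cell. As a check of the labels, H2-Aa itself was at 5410 UMIs per 1000000 (CPM) in WT and 66.2 CPM in cit/cit cells. The libraries shared 31 cell barcodes. Cells were placed in classes by counting, in each cell, how many of 8 marker genes of a type were detected. This gave 617 WT and 687 cit/cit cDC1, 1851 and 4152 cDC2, 2176 and 1439 mature CCR7 DC, 128 and 155 pDC, 174 and 251 monocytes, and 121 and 73 macrophages. The few cells gated as neutrophil lineage, NK, T or B cells are not followed as classes. None of the listed classes had more markers of another type than of its own among its 10 leading genes. In WT macrophages, however, 4 of these genes were haemoglobin genes. At the edge of the gate sat 56.6% of WT and 56.3% of cit/cit cDC2. A further 2703 WT and 4723 cit/cit cells passed no gate and are called ungated. Haemoglobin genes were 4 of their 10 leading genes, and Gm15261 was among the others. Erythroid markers stood at 1249 CPM in WT and 608 CPM in cit/cit ungated cells, and cDC2 markers at 839 and 758 CPM. In the median ungated cell 0 erythroid markers were detected, and 1 (WT) or 2 (cit/cit) cDC2 markers. The libraries also differed in the median share of ribosomal protein UMIs, at 10.5% in WT and 15.5% in cit/cit cells, and this share is set beside the results below.

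Of the 10 genes, Egr1 differed most between the libraries, and the difference depended on the class. Egr1 encodes a zinc-finger activator that is among the earliest genes to respond to MAP kinase signals. In cDC2, the CD11b-type DC that present antigen mainly to CD4 T cells, it was counted 1375 times in WT and 955 times in cit/cit cells, or 93.9 CPM (interval 89.0 to 99.0) and 30.7 CPM (28.8 to 32.7), a 3.05-fold lower level. In cDC1, the cross-presenting XCR1-positive DC, the level was 58.3 CPM (52.9 to 64.1) in WT and 54.3 CPM (49.8 to 59.0) in cit/cit cells. The intervals of both libraries overlapped in cDC1 and lay far apart in cDC2. On the log2 scale the ratio of cit/cit to WT was -1.61 (-1.73 to -1.49) in cDC2 and -0.10 (-0.29 to 0.08) in cDC1, so the ratios differed by 1.51 (1.29 to 1.73).

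**Figure D1:**
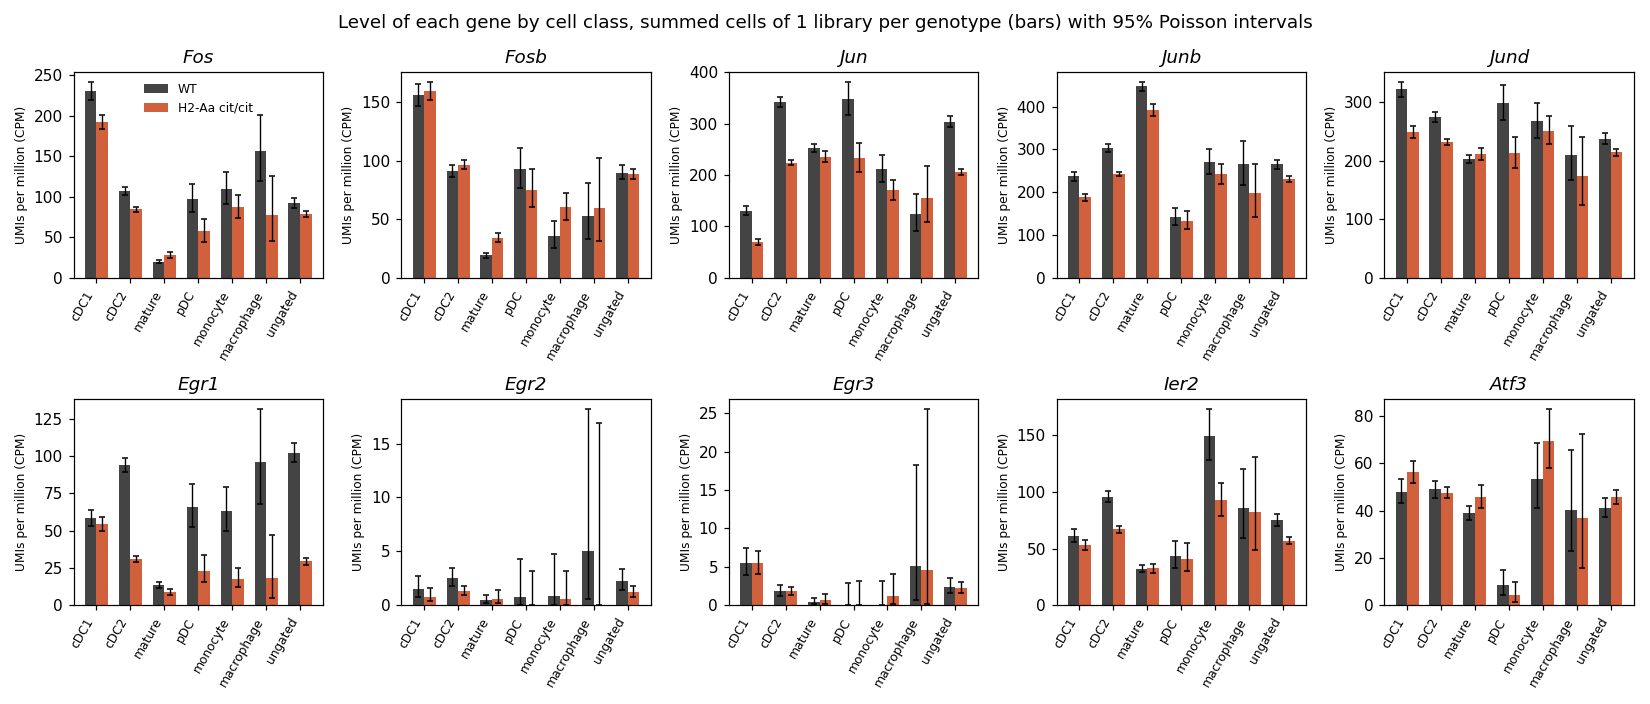
Bars give the level of each of the 10 genes, in CPM, in WT (grey) and cit/cit (orange) cells of each class, and error bars the 95% Poisson interval of the count. The Egr1 bars of cit/cit are the shorter ones with intervals apart in every class but cDC1, where they reach 58.3 and 54.3 CPM.

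The lower level of Egr1 was met in the smaller classes as well. It was 65.7 CPM in WT and 23.1 CPM in cit/cit pDC, the interferon-producing plasmacytoid DC. It was 62.9 and 17.4 CPM in monocytes, and 102 and 29.3 CPM in ungated cells. In each of these classes the intervals of both libraries did not overlap. In macrophages, with a median of 1093 and 1150 UMIs per cell, Egr1 had 38 UMIs in WT and 4 in cit/cit cells, so that its ratio of -2.38 had an interval from -4.33 to -0.91. When cells were assigned by clusters in place of gates, this ratio became -0.52. WT macrophages also held far more haemoglobin RNA than their cit/cit counterparts, with 16117 against 409 CPM for the erythroid markers, and the part of these UMIs in the difference was not tested.

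The order of the classes by Egr1 level was not the same in both libraries. In WT cells, ungated cells, macrophages and cDC2 came first with overlapping intervals (95.9 to 108, 67.8 to 132 and 89.0 to 99.0 CPM). pDC, monocytes and cDC1 followed, again with overlapping intervals. In cit/cit cells cDC1 came first at 54.3 CPM, above cDC2 and ungated cells, which overlapped. cDC2 thus stood 1.61-fold above cDC1 in WT and at 0.567 of cDC1 in cit/cit cells. Mature CCR7 DC, which have left the antigen-sampling state and migrate to T cell zones, were lowest in both, at 13.4 and 8.69 CPM.

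**Figure D2:**
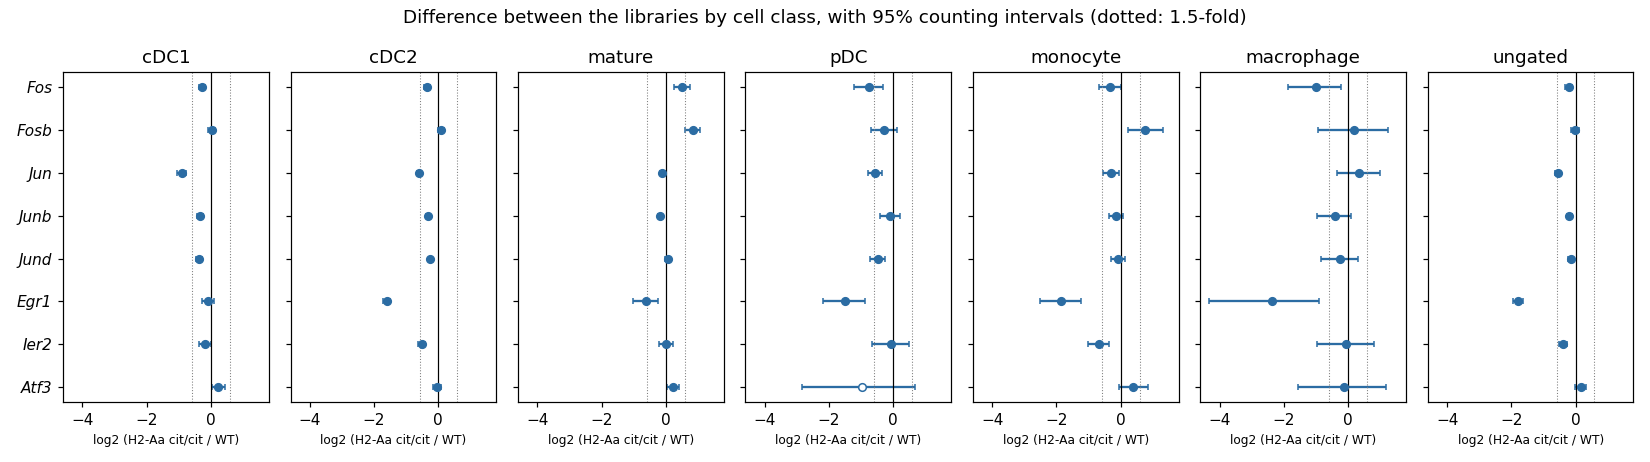
Points give the log2 ratio of cit/cit to WT for 8 of the 10 genes in each class, with 95% counting intervals. Dotted lines mark 1.5-fold, and the open point had under 10 CPM in both libraries. Egr1 is the point farthest to the left in every panel but cDC1, where it is Jun, and the mature panel has Fosb to the right at 0.84.

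A threshold of 1.5-fold was used to set the genes against all others, among those with at least 10 CPM in either library. Egr2 and Egr3 stayed below this level in every class, so 8 genes entered in most classes and 7 in pDC, where Atf3 also fell short. In cDC2, 2 of the 8 genes (Egr1 and Jun) were lower in cit/cit cells past the threshold, beside 2.31% of 8624 genes, and none was higher, beside 2.08%. In cDC1, 1 of 8 (Jun) was lower, beside 7.35% of 8245 genes, and none was higher, beside 8.41%. In ungated cells 1 of 8 (Egr1) was lower, beside 4.03%, and none was higher, beside 3.19%. The median log2 ratio over the 8 genes was -0.33 in cDC2, -0.23 in cDC1 and -0.21 in ungated cells, where the median over all genes was -0.04, -0.03 and -0.03. The immediate-early genes were thus mostly lower, by less than 1.5-fold, in the cit/cit cells of these classes.

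In mature CCR7 DC, 1 of 8 genes (Fosb) was higher, beside 6.53% of 8465 genes, and 1 (Egr1) was lower, beside 4.96%, with a median of 0.04 over the 8 genes and 0.07 over all. Egr1 entered there only through its level in WT. In pDC, 2 of 7 (Egr1 and Fos) were lower, beside 7.88% of 8879 genes, and none was higher, beside 8.17%. In monocytes 2 of 8 (Egr1 and Ier2) were lower, beside 12.1% of 8809 genes, and 1 (Fosb) was higher, beside 7.74%. In macrophages 2 of 8 (Egr1 and Fos) were lower, beside 24.1% of 9263 genes, and none was higher, beside 21.9%, so the share of genes past the threshold was far larger in this shallow class. Over all cells of a library 1 of 8 (Egr1) was lower, beside 7.42% of 8829 genes, and none was higher, beside 3.61%.

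Egr1 was lower in every subset of cDC2 that was examined. Spleen cDC2 were split by whether more of Ffar2, Clec4a4 and Dtx1, or more of Cd209a, Mgl2 and Clec10a, were detected. On the Ffar2 side, 1481 WT cells had Egr1 at 92.4 CPM and 2936 cit/cit cells at 31.9 CPM. On the Mgl2 side, 138 WT cells had 72.2 CPM and 419 cit/cit cells 31.2 CPM. Proliferating cDC2 had less Egr1 in both libraries, 52.3 and 19.7 CPM, and a like difference between them, with a log2 ratio of -1.41 (-1.79 to -1.03). Egr1 was thus lower in cit/cit cells on both sides and in dividing cells. With the class levels of cit/cit cells weighted by the class shares of WT the ratio over all cells was -1.29 in place of -1.07.

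Because the ribosomal protein share differed between the libraries, cDC2 were also compared at like shares. With under 5% ribosomal protein UMIs, 399 WT cells had Egr1 at 158 CPM and 354 cit/cit cells at 33.3 CPM. Between 15 and 20% 550 WT cells had 78.8 CPM and 1407 cit/cit cells 34.8 CPM. The log2 ratio lay between -2.25 and -1.18 over the 5 ranges of ribosomal share. The WT level was lowest in the range of 20% or more, at 61.5 CPM, still above the 20.8 to 41.1 CPM of cit/cit cells over the ranges. In cDC1 with 10 to 20% ribosomal protein UMIs, 267 WT cells had Egr1 at 59.5 CPM and 287 cit/cit cells at 63.3 CPM, a ratio of 0.09 (-0.16 to 0.34). In cDC1 under 10% it was at 120 and 77.8 CPM from 71 and 17 UMIs, a ratio of -0.63 (-1.49 to 0.15). Between 20 and 30% the cDC1 ratio was -0.14 (-0.51 to 0.24), and at 30% or more there were 11 and 2 UMIs. Among cells of like ribosomal share, Egr1 was therefore lower in cit/cit cDC2. The intervals of its cDC1 ratios included 0, but those under 10% and at 30% or more were wide.

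**Figure D3:**
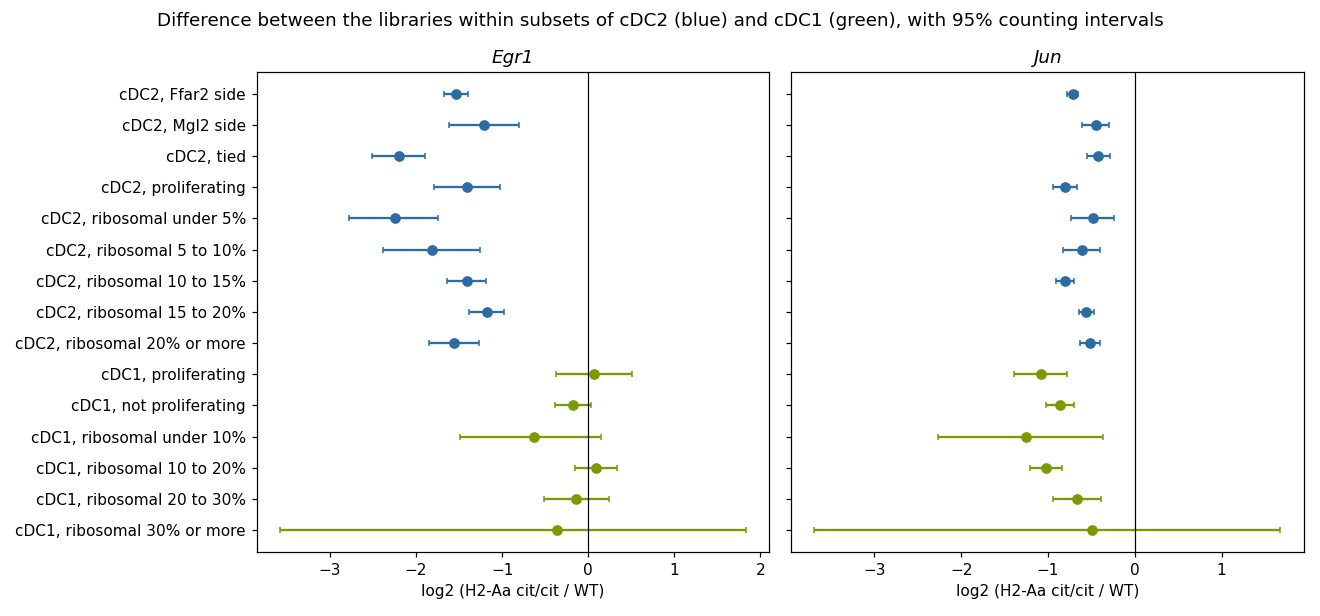
Points give the log2 ratio of cit/cit to WT for Egr1 (left) and Jun (right) within subsets of cDC2 (blue) and cDC1 (green), with 95% counting intervals. For Egr1 all blue points lie at -1.18 or below and all green intervals include 0, whereas Jun is to the left of 0 in both classes.

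The share of cells with Egr1 followed the summed level. After each cell was thinned to 1500 UMIs, Egr1 was detected in 12.2% (10.8 to 13.8%) of 1841 WT and 3.99% (3.41 to 4.64%) of 4108 cit/cit cDC2. In cDC1 it was detected in 8.02% of 611 WT and 9.53% of 682 cit/cit cells, with overlapping intervals. The lowest share was that of mature CCR7 DC, at 1.52% and 0.723%. No class is known to lack Egr1, so the part of free RNA in these shares was not measured. Without thinning, 30.5% of WT and 13.2% of cit/cit cDC2 had an Egr1 UMI, at median depths of 7745 and 6966 UMIs. Cells with an Egr1 UMI held a mean of 2.44 UMIs in WT and 1.75 in cit/cit cDC2. Egr1 was thus detected in a smaller share of cit/cit cDC2, and with fewer UMIs where it was detected. Both values fall when the level per cell falls, so they cannot tell fewer cells with Egr1 RNA from less RNA in each.

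Egr2 and Egr3, zinc-finger relatives of Egr1 that restrain lymphocyte activation, were close to the limit of detection. Egr2 had 37 UMIs in WT and 41 in cit/cit cDC2, or 2.53 and 1.32 CPM, with a log2 ratio of -0.94 (-1.61 to -0.26). Egr3 had 27 and 56 UMIs in cDC2, with a log2 ratio of -0.03 (-0.72 to 0.69). Egr3 was highest in cDC1, apart from the 3 UMIs in macrophages, with 5.50 CPM in WT and 5.45 CPM in cit/cit cells. Egr2 thus pointed the same way as Egr1 in cDC2, and Egr3 did not differ beyond counting error in any class. In pDC Egr3 had no UMI in either library, which allows up to 2.29 CPM in WT and 2.57 CPM in cit/cit cells at 3 counts. Fosl1, Egr4, Hspa1a and Hspa1b, which are also inducible, were likewise below 10 CPM in cDC2.

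Jun, the AP-1 partner whose gene is under the control of its own protein, was lower in cit/cit cells of both conventional DC classes. In cDC1 it was counted 950 times in WT and 702 times in cit/cit cells, or 131 and 69.6 CPM, with a log2 ratio of -0.91 (-1.05 to -0.76). In cDC2 it was at 342 and 224 CPM, a ratio of -0.61 (-0.66 to -0.55). Under median-of-ratios scaling the cDC2 ratio was -0.57, just inside 1.5-fold. The decrease was larger in cDC1 than in cDC2, by 0.30 (0.15 to 0.45), the opposite of Egr1. In pDC Jun was at 348 and 234 CPM, in ungated cells at 303 and 206 CPM, and in monocytes at 212 and 170 CPM. Mature CCR7 DC had 253 and 236 CPM. In macrophages it was at 124 and 156 CPM with overlapping intervals. Jun was thus lower in cit/cit cells of 6 of the 7 classes. Within a library, Jun was 2.62-fold higher in cDC2 than in cDC1 in WT and 3.22-fold in cit/cit cells.

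Fos and Fosb, which cannot pair with themselves and need a JUN partner, had the opposite class pattern and were highest in cDC1. In cDC1 the level of Fos was 231 CPM (220 to 242) in WT and 192 CPM (184 to 201) in cit/cit cells. It was at 107 and 84.3 CPM in cDC2, and at 20.1 and 28.4 CPM in mature CCR7 DC. In cDC2 the ratio was -0.34 (-0.43 to -0.25) and in cDC1 -0.26 (-0.36 to -0.17), a difference of 0.08 (-0.05 to 0.21) between the classes. Fos was thus modestly lower by its summed level in both conventional classes. The ratio in cDC1 was -0.0058 when each cell was given the same weight. After thinning to 1500 UMIs, Fos was detected in 19.0% (15.9 to 22.3%) of WT and 20.4% (17.4 to 23.6%) of cit/cit cDC1. In cDC2 it was detected in 10.3% (8.97 to 11.8%) and 10.8% (9.85 to 11.8%). Over each whole class the share of cells with Fos was thus not lower. By ribosomal protein share, the Fos ratio in cDC1 was -0.61 under 10%, -0.25 at 10 to 20% and -0.38 at 20 to 30%. At 30% or more it was 3.09, from 4 and 8 UMIs. The Fos ratio in cDC2 was 0.14 (-0.36 to 0.63) under 5% and between -0.55 and -0.32 in the other ranges. In pDC Fos was at 97.8 and 57.3 CPM, a ratio of -0.77 (-1.22 to -0.33). Monocytes had 110 and 87.0 CPM, macrophages 156 and 78.1 CPM, and ungated cells 92.1 and 79.0 CPM.

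Fosb did not follow Fos. It was at 156 and 159 CPM in cDC1 and at 90.9 and 96.6 CPM in cDC2, where the ratios of 0.03 and 0.09 had intervals that included 0. In mature CCR7 DC the WT level was 19.1 CPM (17.0 to 21.4) and the cit/cit level 34.1 CPM (30.2 to 38.4), a ratio of 0.84 (0.60 to 1.08). In monocytes it was at 35.7 and 60.1 CPM, from 42 and 107 UMIs. Over each whole class, Fosb was thus level between the libraries in cDC1, cDC2 and ungated cells (89.8 and 88.5 CPM). It was higher in cit/cit mature CCR7 DC. By ribosomal protein share, the cDC2 ratio was -0.39 (-0.77 to -0.03) under 5% and 0.60 (0.14 to 1.06) at 5 to 10%. It lay between -0.10 and 0.18 in the other ranges. Under 10% and at 10% or more, the ratios were 0.48 (0.08 to 0.87) and 0.08 (-0.03 to 0.20) in cDC1. They were 0.43 (-0.01 to 0.85) and 0.75 (0.44 to 1.07) in mature cells, and 0.20 (0.01 to 0.39) and -0.10 (-0.25 to 0.06) in ungated cells. The monocyte difference had the other direction, at -0.66, when cells were assigned by clusters. In mature CCR7 DC without cells of high doublet score the ratio was 0.58.

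Mature CCR7 DC with at least 2 detected cDC1 markers differed from those with none in the direction of Egr1, and cells with 1 such marker are in neither group. The part of doublets in the first group was not tested. Among 156 WT and 31 cit/cit mature cells with at least 2 cDC1 markers, Egr1 had 10 and 8 UMIs, or 4.47 and 23.4 CPM. Among 1549 and 1237 mature cells with none it was at 15.6 and 7.38 CPM, a ratio of -1.08 (-1.58 to -0.60). Fos, at 25.5 and 79.1 CPM, Fosb, at 17.0 and 61.5 CPM, and Jun, at 89.4 and 226 CPM, were also higher in the 31 cit/cit cells of the first group. So were Ier2, Jund and Atf3, whereas Junb was lower, at 416 and 293 CPM, a ratio of -0.51 (-0.82 to -0.21). The median log2 ratio over all genes was itself 0.33 in this group, against 0.07 in the whole class. In mature CCR7 DC 1% of the cells held 46.2% of the Egr1 UMIs in WT and 57.7% in cit/cit. When classes were taken from clusters, the Egr1 ratio of mature cells was 1.55 in place of -0.63. In a cluster of 994 cit/cit cells that was named mature, 66.0% of the gated cells were mature, so the direction of Egr1 in this class depends on how mature cells are drawn.

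Junb, which forms AP-1 dimers of weaker activity than Jun, was highest in mature CCR7 DC. In mature cells its level was 448 CPM in WT and 392 CPM in cit/cit, and at 303 and 242 CPM in cDC2. Jund, the steadily expressed JUN gene, was at 274 and 231 CPM in cDC2 and at 203 and 211 CPM in mature cells. In cDC2 the ratio of Junb was -0.32 (-0.38 to -0.27) and that of Jund -0.25 (-0.30 to -0.19), both under 1.5-fold. Over the 7 classes the ratio of Junb ranged from -0.42 to -0.09 and that of Jund from -0.49 to 0.06.

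Ier2, a small nuclear protein induced by serum and growth factors, was at 95.8 and 66.8 CPM in cDC2 and at 150 and 92.7 CPM in monocytes. Its ratio was -0.52 (-0.62 to -0.42) in cDC2, -0.69 (-1.01 to -0.38) in monocytes and -0.20 (-0.38 to -0.01) in cDC1. Ier2 was therefore lower in cDC2 more than in cDC1, by 0.32 (0.12 to 0.53) on the log2 scale, as was Egr1. Atf3, a stress-induced bZIP factor that represses inflammatory genes, was at 48.9 and 47.6 CPM in cDC2 and at 48.0 and 56.3 CPM in cDC1. Its ratio was -0.04 (-0.17 to 0.09) in cDC2 and 0.23 (0.04 to 0.43) in cDC1. The direction in cDC1 depended on the ribosomal protein share. The ratio was -1.24 (-2.37 to -0.27) under 10%, from 64 and 10 UMIs, and 0.41 (0.20 to 0.62) at 10% or more. In cDC1 1% of the cells held 31.5% of the Atf3 UMIs in WT and 15.8% in cit/cit. In pDC Atf3 was scarce, with 11 and 5 UMIs. Of the 8 genes, Atf3 and Fosb were those whose interval over the whole cDC2 class included 0. By ribosomal protein share, the Atf3 ratio in cDC2 was -0.94 (-1.56 to -0.34) under 5%, from 83 and 33 UMIs. It lay between -0.19 and 0.20 in the other ranges. In ungated cells it was -0.31 (-0.58 to -0.04) under 10% and 0.55 (0.31 to 0.79) at 10% or more.

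The promoters of Fos, Fosb, Jun and Junb are shown because these genes share the same upstream kinases and yet differed in unlike ways, with Jun lower by 1.52-fold and Fosb within its counting interval in cit/cit cDC2. The lines give the 250 bases before the RefSeq start on GRCm38.p6, read 5′ to 3′ on the gene's strand, for 4 of the 7 genes found in that set. Capitals mark the CRE half-site TGACG and, in Jun, the 8-base element TGACATCA. The windows lie at chr12:85473640-85473889 (Fos, plus strand), chr7:19310046-19310295 (Fosb, minus), chr4:95052223-95052472 (Jun, minus) and chr8:84978749-84978998 (Junb, minus).
Fos: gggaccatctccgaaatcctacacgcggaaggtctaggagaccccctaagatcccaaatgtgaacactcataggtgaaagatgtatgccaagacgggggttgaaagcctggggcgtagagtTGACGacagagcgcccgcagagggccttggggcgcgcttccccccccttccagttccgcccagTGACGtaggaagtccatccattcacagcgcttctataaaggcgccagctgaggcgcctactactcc
Fosb: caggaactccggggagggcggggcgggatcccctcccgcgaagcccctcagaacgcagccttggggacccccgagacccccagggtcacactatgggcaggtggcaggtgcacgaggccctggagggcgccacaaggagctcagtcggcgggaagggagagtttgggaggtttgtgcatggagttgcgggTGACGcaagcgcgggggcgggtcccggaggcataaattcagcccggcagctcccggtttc
Jun: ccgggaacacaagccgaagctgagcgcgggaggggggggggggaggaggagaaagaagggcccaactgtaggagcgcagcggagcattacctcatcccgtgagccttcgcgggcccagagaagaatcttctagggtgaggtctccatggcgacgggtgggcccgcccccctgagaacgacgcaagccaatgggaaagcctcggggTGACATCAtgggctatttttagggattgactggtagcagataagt
Junb: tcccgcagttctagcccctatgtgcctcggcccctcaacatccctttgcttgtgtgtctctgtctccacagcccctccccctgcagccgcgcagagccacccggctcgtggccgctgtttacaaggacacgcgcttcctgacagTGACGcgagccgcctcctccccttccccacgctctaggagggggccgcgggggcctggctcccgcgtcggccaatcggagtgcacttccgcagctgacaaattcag
TGACG was found 129 and 66 bases before the start of Fos, 60 bases before that of Fosb and 106 bases before that of Junb, and 17.8% of 32851 mouse promoter windows of this length hold it on either strand. The window of Jun held no TGACG and had TGACATCA 45 bases before the start, an element found in 2.93% of windows. None of the 4 windows held the full CRE TGACGTCA (1.55% of windows, and itself an extension of TGACG), the AP-1 site TGAGTCA (4.46%), the EGR site GCGTGGGCG (0.536%) or a CArG box, the binding element of SRF (1.47%). A CArG box was found in windows of Egr2. Sites more than 250 bases before the start were not searched, so a site missing from a window may lie farther away. These matches describe the letters of the windows and say nothing of binding in these cells.

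Within single cDC2 the immediate-early genes were found together more often than their separate shares predict. In cDC2 thinned to 1500 UMIs, the number of cells with both genes of a pair was divided by the number given by the product of the shares of each. Over 28 pairs the median ratio was 1.32 in WT (range 1.09 to 1.85) and 1.20 in cit/cit cells (1.07 to 2.02). Pairs with a small predicted number were left out. Every pair compared was thus above 1 in both libraries, and the counting interval lay above 1 for 16 pairs in WT and 12 in cit/cit. For pairs of 8 reference genes such as Hprt and Tbp the median was 0.991 over 18 pairs in WT and 0.955 over 25 pairs in cit/cit cDC2. The interval lay above 1 for 0 of these pairs in WT and 1 in cit/cit. Among heat shock pairs it lay above 1 for 2 of 12 in WT and 1 of 14 in cit/cit.

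**Figure D4:**
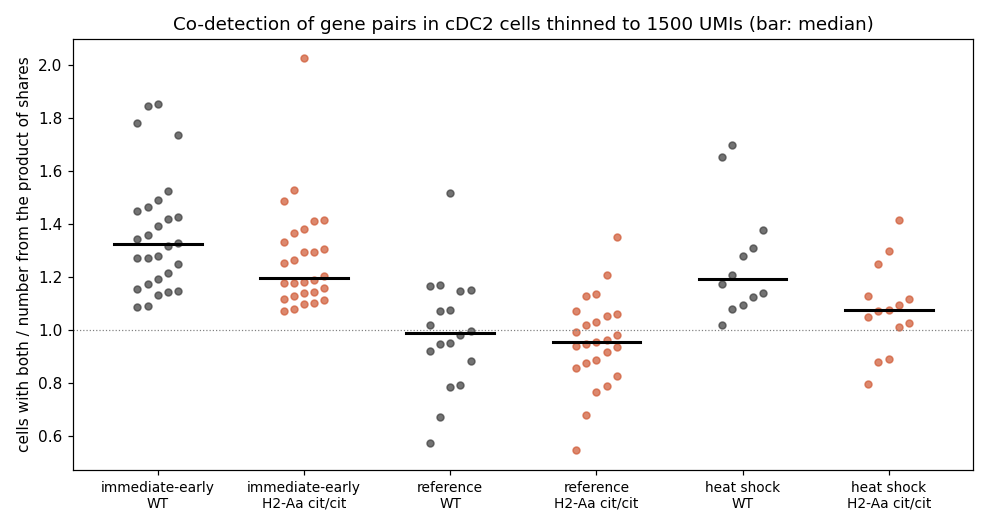
Each point is a pair of genes in cDC2 thinned to 1500 UMIs, with the number of cells that had both divided by the number given by the product of the shares. Bars are medians, at 1.32 in WT and 1.20 in cit/cit for the immediate-early genes, 0.991 and 0.955 for reference genes, and 1.19 and 1.08 for heat shock genes.

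The pairs with the largest ratios joined Fos, Fosb, Atf3, Egr1 and Ier2. Fos and Fosb were found together in 39 WT cDC2 where 21.2 were predicted, a ratio of 1.84 (1.31 to 2.51). Fos and Atf3 were found together in 48 cit/cit cDC2 where 23.7 were predicted, a ratio of 2.02 (1.49 to 2.68). In WT cDC2, Fos and Fosb were thus found together more often than predicted. Between the libraries, the summed level in cDC2 was lower in cit/cit for Fos, and the interval of the Fosb ratio included 0. The cDC2 class also joins cells of unlike level. In WT, Fos was at 89.4 CPM on the Ffar2 side and at 206 CPM on the Mgl2 side. Fosb was at 81.9 and 146 CPM. The part of such subsets in the co-detection ratios was not tested. The medians in cDC1 were 1.41 and 1.29, and in mature CCR7 DC 1.19 and 1.15. The interval lay above 1 for 8 of 23 and 4 of 22 pairs in cDC1, and for 2 of 19 and 0 of 15 in mature cells. Heat shock pairs had medians of 1.04 and 0.984 in cDC1 and of 1.19 and 1.07 in mature cells. In ungated cells heat shock pairs had 1.36 and 1.21, and immediate-early pairs 1.24 and 1.32. Pairs of an immediate-early gene with a heat shock gene had medians of 1.02 and 1.01 in cDC2, while pairs of heat shock genes had 1.19 and 1.08.

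At least 4 of the 10 genes were detected in 7.71% (6.53 to 9.03%) of WT and 3.48% (2.94 to 4.09%) of cit/cit cDC2, where independent shares would give 3.84% and 1.79%. None was detected in 24.2% and 30.3%, where independent shares would give 17.5% and 25.2%. In cDC1 at least 4 genes were found in 6.55% (4.72 to 8.81%) and 3.52% (2.27 to 5.19%) of cells. Cells with many of the genes thus exceeded the independent value in both libraries, and their share was lower in cit/cit cDC2. The median ribosomal protein share was 15.4% in WT cDC2 with at least 4 genes and 12.9% in those with none. In cit/cit cDC2 it was 18.4% and 17.2%. In WT cDC1 the order was the reverse, with 13.7% and 24.7%, and 139 WT cDC1 with over 30% ribosomal protein UMIs had Fos at only 5.47 CPM. The part of such cells in the WT cDC1 values was not tested. A high doublet score was met in 5.63% of WT cDC2 with at least 4 genes and 4.49% of those with none, and in 15.4% and 10.1% in cit/cit. In mature CCR7 DC it was met in 18.2% and 8.33% in WT and in 52.4% and 12.8% in cit/cit. The part of doublets in the cells with many of the genes was not tested.

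Whether Egr1 went with the other genes was read within each library. Among WT cDC2, Egr1 was detected in 16.1% (13.3 to 19.2%) of cells with a Jun UMI and in 10.2% of those without. Among cit/cit cDC2 it was detected in 4.56% and 3.80%. Egr1 was therefore lower in cit/cit cDC2 both among cells with and among cells without Jun. The same held with Fosb. Egr1 was detected in 16.6% (11.8 to 22.4%) of WT and 4.29% (2.67 to 6.48%) of cit/cit cells with a Fosb UMI, and in 11.7% (10.2 to 13.3%) and 3.95% (3.34 to 4.64%) of those without. Egr1 and Fosb were found together in 21 cit/cit cDC2, where independent shares would give 19.6, and the counting interval of their ratio (0.665 to 1.64) included 1. With and without a Junb UMI, Egr1 was detected in 5.32% and 3.47% of cit/cit cDC2. These shares were 5.17% and 3.55% for Jund, 5.64% and 3.79% for Fos, 5.93% and 3.81% for Ier2, and 4.55% and 3.96% for Atf3. The intervals overlapped for each of these genes. In WT cDC2 the shares were 15.3% and 10.8% for Junb, 13.3% and 11.7% for Jund, and 17.9% and 11.6% for Fos. For Ier2 they were 16.2% and 11.6%, and for Atf3 22.6% and 11.6%.

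Other genes of the same circuit were read from lists chosen by function. Of the 13 other AP-1 and ATF/BATF dimer genes, 8 could be compared in cDC2. Past 1.5-fold 1 was higher, beside 2.08% of all genes, and none was lower, beside 2.31%. The higher gene was Atf4, the effector of the integrated stress response, with 42.2 CPM in WT and 65.5 CPM in cit/cit cells, a ratio of 0.63 (0.50 to 0.77). In cDC1 Atf4 was at 49.1 and 194 CPM, a ratio of 1.99, and Jdp2, a repressive AP-1 partner, at 19.2 and 53.2 CPM. Batf3, on which cDC1 depend, was at 244 and 223 CPM in cDC1. In cDC1 2 of 8 dimer genes were higher past 1.5-fold, beside 8.41% of all genes, and none was lower, beside 7.35%. With 8 genes, a count of none lower is near these shares. The median over the 8 was -0.07 in cDC2 and 0.25 in cDC1. In monocytes 4 of 11 were lower, beside 12.1% of all genes, and 1 was higher, beside 7.74%.

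Of 14 upstream kinases and SRF/CREB factors, 12 could be compared in cDC2 and none passed 1.5-fold in either direction. Of all genes 2.08% were higher and 2.31% lower, and the median over the 12 was -0.07. Elk3, an SRF partner, was at 180 and 124 CPM in cDC2, a ratio of -0.54. Nab1, a co-repressor that binds EGR proteins, was at 89.9 and 91.3 CPM. Over all cells 1 of 12 was lower past 1.5-fold, beside 7.42% of all genes, and none was higher, beside 3.61%. The lower gene was Elk3, at 220 and 146 CPM, a ratio of -0.59. These are RNA levels, which do not measure the activity of the kinases and factors.

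Of 16 other early-response and feedback genes, 15 could be compared in cDC2, of which 3 were lower, beside 2.31% of all genes, and 1 was higher, beside 2.08%, with a median of -0.27. Rhob, a small GTPase, was at 22.4 and 11.3 CPM, Zfp36, which destabilises inflammatory mRNAs, at 197 and 123 CPM, and Klf2, a quiescence factor, at 152 and 97.1 CPM. Ier3, a survival factor, was higher, at 8.94 and 13.9 CPM, and entered only through its level in cit/cit cells. In cDC1 5 of 14 were lower, beside 7.35% of all genes, and none was higher, beside 8.41%, with a median of -0.44, among them Dusp1, which switches off MAP kinases, at 61.0 and 28.6 CPM. Over all cells 7 of 15 were lower, beside 7.42%, and none was higher, beside 3.61%. More of these genes were thus lower than higher in cit/cit cells, in cDC1 as well as in cDC2, where the immediate-early genes had medians of -0.23 and -0.33. Of 8 heat shock genes 6 could be compared in cDC2. None was higher past 1.5-fold, beside 2.08% of all genes, and none was lower, beside 2.31%. With 6 genes, such counts are near these shares. The median over the 6 was 0.12, where the median over all genes was -0.04. Over all cells these medians were 0.24 and 0.02, and the heat shock median was the higher one in each class. The dissociation of tissue is known to raise both heat shock and immediate-early genes. The part of handling in the differences was not tested.

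The genes most like the immediate-early genes across single cDC2 were read by the smaller of the correlations in the libraries, over 1851 WT and 4152 cit/cit cells. They were Cd74 (r = 0.35 in WT and 0.31 in cit/cit), H2-Eb1 and H2-Ab1, which belong to MHC-II antigen presentation, followed by Tmem176b, Zfp36, Fth1, Tmem176a, Cd209a, H2-D1 and Btg2, the last with 0.26 and 0.20. The cells of a library differ in depth and ribosomal protein share, and Rps27, Rps9 and Rpl17 were among the 15 leading genes of cDC2. The part of these differences in the weak correlations was not tested, and the correlations are given as a description. In cDC1 the first gene was Malat1 and in mature CCR7 DC it was H2-D1. Zfp36 was among the 15 leading genes of all 3 classes.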

How the data were processed

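A single library of each genotype was measured with a 10x 3′ single-cell kit on sorted splenic DC. The deposited values are raw UMI counts, not normalized. The authors ran Cell Ranger 5.0.1 on GRCm38 (mm10 in the labels) to obtain them for each gene in each cell. The annotation version and whether intronic reads were counted are not given in the sources used here, and either could change the counts of short genes. The files hold called cells alone, each with at least 500 UMIs. The labels name the authors' use of Seurat, and their cell annotation was not used here.

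A cell was gated to the class with the most of 8 markers detected, if these were at least 3 and led the next class by at least 1. No cell was removed, and doublets were kept in the main values. UMIs were summed per class and scaled to 1000000, a gene needed 10 CPM or more in either library to be compared, and 1.5-fold was the threshold. Genes with UMIs in only 1 library were compared as well and counted as past the threshold. Poisson, Clopper-Pearson and conditional binomial intervals at 95% cover counting error only, since PCR and mouse-to-mouse spread are outside them. The difference of 2 log2 ratios has a normal interval from both counts. A count of 0 allows up to 3 UMIs. Cells were thinned to 1500 UMIs for shares and co-detection, which left out 10 WT and 44 cit/cit cDC2. No design with 1 library per genotype allows a test, and fits planned for counts across replicates were not run. The ratio step was tested on simulated counts.

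The genes named outside the 10 are those past 1.5-fold in cDC2, at most 4 per list, and the 10 most alike across cDC2. Further genes (Jdp2, Batf3, Elk3, Nab1, Dusp1, Malat1 and those below 10 CPM) were named after their values were seen. The members and lists were chosen with earlier results of these data known. Alternatives were median-of-ratios scaling, means over cells per 10000 UMIs, removal of cells by mitochondrial (over 10%) or ribosomal (under 10%) share or by Scrublet score, Leiden clusters, a gate of 4 markers, no minimum level, 2-fold, and 1000 or all UMIs. Promoters came from RefSeq on GRCm38.p6 and were matched by symbol for 7 of 10 genes. Python 3.11.15, numpy 2.4.6, scipy 1.17.1, pandas 2.3.3, scanpy 1.11.5 and matplotlib 3.10.9 were used.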

Additional observations from a re-analysis of the deposited data

Results flagged for a closer look

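Egr1 in mature CCR7 DC moved in opposite directions in subsets of the class. The log2 ratio of cit/cit to WT was 2.39 (0.85 to 3.88) in mature cells with at least 2 cDC1 markers, from 10 and 8 UMIs, and -1.08 in mature cells with none. The subsets were chosen after seeing the data, and the difference was not tested beyond the counting intervals.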

How the results depend on the processing

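No paired analysis was possible because each genotype has 1 library. The Egr1 ratio in cDC2 stayed between -1.88 and -1.21 under all 11 alternatives, and that in cDC1 between -0.18 and 0.03 under 9. Some alternatives (subsets of cDC2 and mature DC, removal of proliferating or of the top 1% of cells, WT class shares) were chosen after seeing the data. With classes from clusters, the ratio became 1.55 for Egr1 in mature cells and -0.66 for Fosb in monocytes. In mature cells with cDC1 markers Egr1 was at 2.39, the median at 1.48 and 6 genes were higher, where the median over all genes was itself 0.33. In mature cells without such markers the median over the immediate-early genes was -0.11, and on the Mgl2 side of cDC2 -0.47. Clusters also gave a median over the genes of -0.25 in cDC2 and 0.28 in mature cells, where 3 genes were higher and 0 lower. The medians over all genes were then -0.07 and 0.15. The counts of immediate-early genes under the alternatives are given without the share of all genes past the same threshold. This holds for clusters, subsets, removal of cells, the other scalings and 2-fold. A large low-depth cit/cit cluster of 1783 cells stayed unnamed while its WT counterpart was named cDC2. Without cells under 10% ribosomal protein UMIs, the median over all cells was -0.33 and 2 genes were higher in mature cells. Without cells of high doublet score 0 were higher there. Means over cells gave a cDC1 median of -0.056. Under means over cells or median-of-ratios scaling 1 gene was lower in cDC2. At 2-fold, 0 genes were lower in cDC1, 1 in cDC2, and in mature cells 0 were higher and 0 lower. With no minimum level, 2 of the 10 genes were lower over all cells and 2 in cDC1, and the numbers over all genes rose to 2846 higher and 5467 lower over all cells, 3435 and 3646 in cDC1, 3151 and 3810 in cDC2, and 3498 and 4345 in mature cells, the added genes being under 10 CPM in both libraries. Apart from the level minimum and the 2-fold threshold, the cause of these changes was not tested. Depth limits Egr2, Egr3 and the macrophage values.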
